A study of Mus musculus with 6 samples.

Results

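Matrix metalloproteinases (MMP), the ADAM and ADAMTS proteases, the ADAMTS-like proteins (ADAMTSL) and their tissue inhibitors (TIMP) were followed in cultured mouse dorsal root ganglion (DRG) neurons. Genes were taken by symbol (Mmp, Adam, Adamts or Adamtsl followed by a digit, or Timp1 to Timp4) when they had at least 10 raw counts in 3 or more of the 6 cultures. This gave 56 genes of 84 with such a symbol and of 35976 listed: 16 MMP, 16 ADAM, 16 ADAMTS, 5 ADAMTSL and 3 TIMP genes. The study asked whether long exposure to HC-HA/PTX3 changed gene expression in DRG neurons. HC-HA/PTX3 is a matrix material isolated from human amniotic membrane, built from hyaluronan bearing a serum-derived protein chain (HC) together with pentraxin 3 (PTX3). Lumbar DRGs of C57BL/6 mice of both sexes aged 2 to 3 months were dissociated with dispase and collagenase, and the cells were plated on poly-D-lysine and laminin in medium with 10% fetal bovine serum and growth factors. After 24 h the cultures received vehicle (3 cultures) or 15 µg/mL HC-HA/PTX3 (3 cultures) for a further 24 h, and ribosome-depleted total RNA was sequenced. The vehicle cultures held 42516054, 42617496 and 54117547 counts and the HC-HA/PTX3 cultures 37998071, 37434266 and 38420247.

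MMPs are zinc proteases that cut collagens, laminins and many cell surface proteins. ADAMs are membrane proteins, some of which release the outer parts of other membrane proteins, whereas ADAMTS enzymes are secreted and cut proteoglycans and procollagens. TIMPs block the active site of these enzymes, and in the DRG gelatinases and their inhibitors have been studied in nerve injury and pain.

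Below, levels are in CPM, counts scaled to a common library size after TMM normalization, and 3 values in a row belong to the cultures numbered 1, 2 and 3. Differences were estimated with edgeR between same-numbered cultures, with the culture number as a block. A gene was called at a Benjamini-Hochberg (BH) adjusted p under 0.05 over all genes tested and an absolute log2 fold change over 0.5. Of the 56 members, 55 passed the filter on low counts and were tested. The exception was Adamts19, with 0.209 ± 0.0676 CPM in vehicle (SD, n = 3).

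Of the 55 members tested, 7 were called lower after HC-HA/PTX3 (12.7%, against 5.38% of all 18277 genes tested) and 1 was called higher (1.82%, against 3.32%). Together they made 14.5% of the members, against 8.70% of all genes. Those called lower were Mmp15, Mmp9, Adam12, Adamts20, Adamts12, Adamtsl3 and Timp1, and Mmp2 was called higher. At the adjusted p alone, with no fold threshold, 13 of 55 members passed (23.6%, against 19.2% of all genes). The 5 of these that were not called were under the fold threshold: Mmp16, Adamts5 and Timp3 were lower, and Adam8 and Adamts4 were higher. The median log2 fold change of the 55 members was -0.0027, beside -0.0067 over all genes tested. The groups did not overlap in 2 members, Mmp16 and Mmp2 (3.64%, against 18.0% of all genes), so the groups overlapped in 7 of the 8 called members. Without the replicate block, edgeR called 0 members and 0 of all genes, with 4 members and 2089 genes at an unadjusted p under 0.05 and a smallest member BH-adjusted p of 0.332. DESeq2 and limma-voom with the block called 7 and 8 of the same 8 members.

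**Figure D1:**
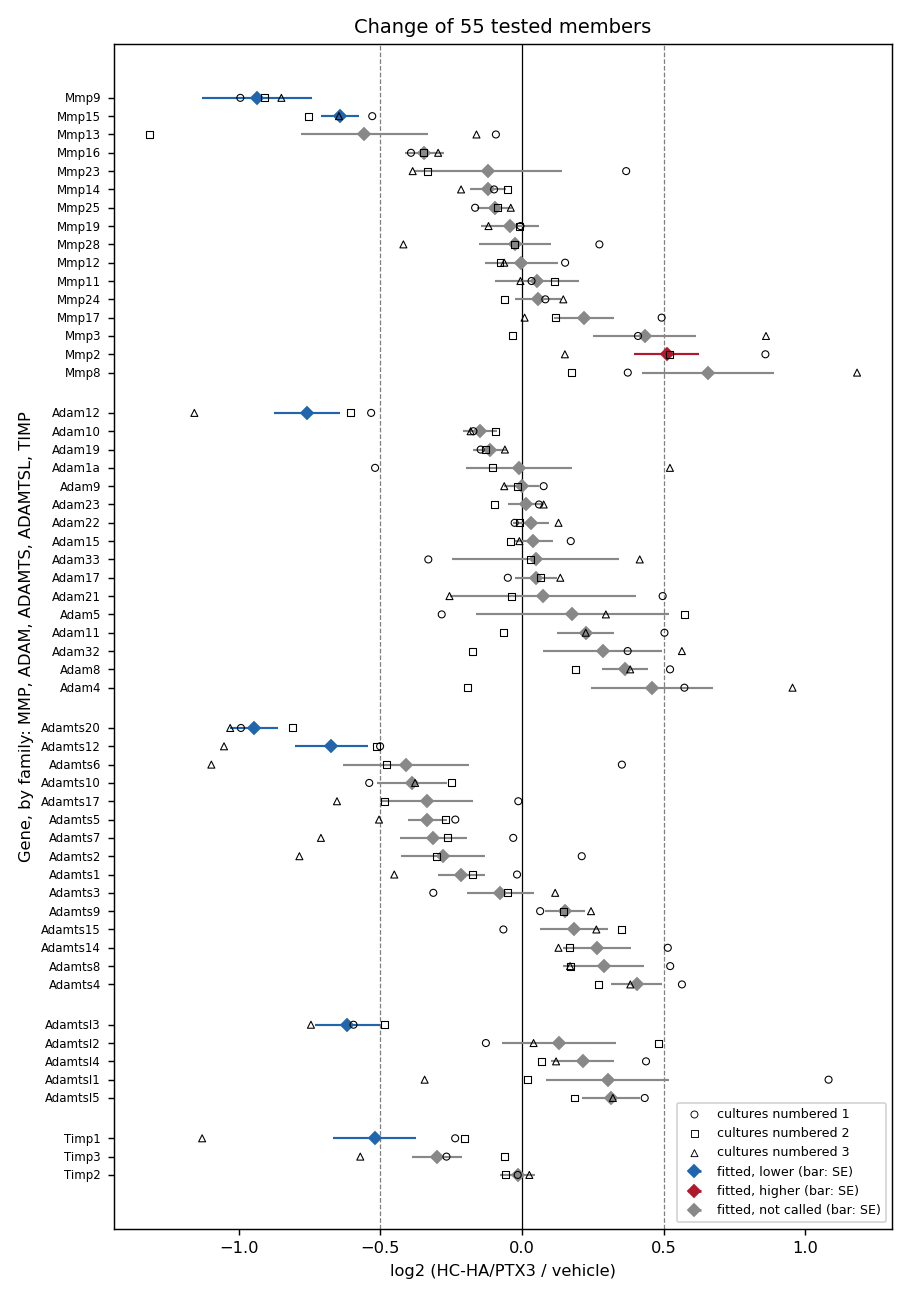
Change of the 55 tested members, by family. The x axis is the log2 ratio of HC-HA/PTX3 to vehicle. Diamonds are the fitted values with their SE, coloured by call, open symbols are the ratios between same-numbered cultures, and dashed lines mark the fold threshold of 0.5. The 7 members called lower lie between -0.95 and -0.52.

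Among the MMP genes, the most abundant per kilobase (kb) of exon in vehicle cultures was Mmp14, a membrane-bound collagenase that also activates the MMP2 proenzyme, at 46.6 CPM per kb. Mmp25, which is held in the membrane by a lipid anchor, had 24.3 and Mmp15, a transmembrane MMP, 19.1 CPM per kb. All 16 MMP genes were tested, with 2 called lower (12.5%, against 5.38% of all genes) and 1 called higher (6.25%, against 3.32%). Their median log2 fold change was -0.034 (0.037 without the cultures numbered 3).

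**Figure D2:**
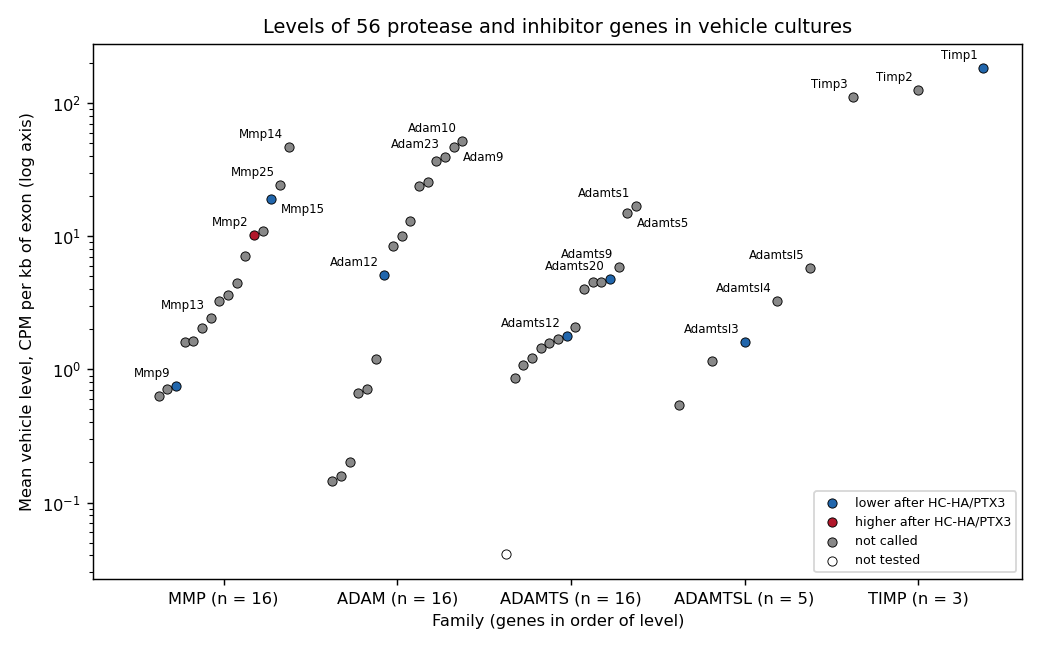
Levels in vehicle cultures. Each point is 1 of the 56 genes, at its mean over 3 vehicle cultures in CPM per kb of exon (log axis), ordered by level within its family and coloured by its call. The TIMP genes lie at 110.4 to 183 CPM per kb, above the highest gene of each other family.

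Mmp15, at chr8:95352268-95375080 (mm10, GENCODE M21), was 117, 99.5 and 78.5 CPM in vehicle and 80.9, 59.0 and 50.2 CPM after HC-HA/PTX3. It was lower after treatment in all 3 numbered comparisons, and the groups overlapped through the first HC-HA/PTX3 culture. Its decrease passed both thresholds (log2 fold change -0.64 ± 0.068 SE, edgeR, BH-adjusted p = 0.000626). The call held in 11 of 12 alternative settings, with adjusted p from 1.7e-14 to 0.347, and was lost without the block. In this and later tallies, 1 of the 12 is the same fit with no fold threshold, which keeps every call by construction. The lowest adjusted p came with no low-count filter, as for the other called members. Mmp16, another transmembrane MMP, was 60.4, 54.1 and 49.3 CPM in vehicle and 46.1, 42.5 and 40.1 CPM after treatment. All 3 treated cultures lay below all 3 vehicle cultures, and the fitted change stayed under the fold threshold (log2 fold change -0.34 ± 0.069 SE, edgeR, BH-adjusted p = 0.00782). Mmp16 no longer passed the adjusted p without the cultures numbered 1 (edgeR, BH-adjusted p = 0.0524) or with no block (0.336). Mmp14 was 218, 250.3 and 116 CPM in vehicle and 204, 242 and 100.0 CPM after treatment, lower in both cultures numbered 3 than in the other 4. Its difference between the groups did not pass (log2 fold change -0.12 ± 0.063 SE, edgeR, BH-adjusted p = 0.209), and was -0.059 without the cultures numbered 3. Mmp25 was 106, 101 and 123 CPM and 94.9, 95.0 and 120.0 CPM, a difference that did not pass either (log2 fold change -0.10 ± 0.061 SE, edgeR, BH-adjusted p = 0.308). The remaining membrane-type genes, Mmp24, which is known from neurons, and Mmp17, had log2 fold changes of 0.058 and 0.22 (0.071 for Mmp17 without the cultures numbered 1), neither called.

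The gelatinases, which cut denatured collagen and the type IV collagen of basement membranes, were called in opposite directions. Mmp2, at chr8:92827291-92853420, was 29.6, 33.9 and 31.3 CPM in vehicle and 53.8, 48.7 and 34.8 CPM after HC-HA/PTX3. All 3 treated cultures lay above all 3 vehicle cultures, and the third treated culture was close to the vehicle range. The increase just passed the fold threshold (log2 fold change 0.51 ± 0.12 SE, edgeR, BH-adjusted p = 0.013). It was called in 8 of 12 alternatives (adjusted p 6.42e-06 to 0.332). The call ended without the block, without the cultures numbered 1 (log2 fold change 0.34, edgeR, BH-adjusted p = 0.098), without those numbered 2 (0.50, BH-adjusted p = 0.0867) and without the low-count filter, where the log2 fold change was 0.49.

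Mmp9, at chr2:164940780-164955850, was scarce, with 60, 121 and 161 raw counts in vehicle and 27, 56 and 62 after treatment. In CPM these were 1.50, 2.81 and 2.87 and 0.727, 1.48 and 1.57. The treated culture was the lower one for each number, while the first vehicle culture fell within the treated range. The decrease passed both thresholds (log2 fold change -0.93 ± 0.19 SE, edgeR, BH-adjusted p = 0.00884). Without the cultures numbered 1 it was of nearly the same size, -0.90, and its edgeR, BH-adjusted p was 0.0518, in a range of 7.95e-05 to 0.434 over 12 alternatives.

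Mmp13, a collagenase of fibrillar collagen, was 3.04, 10.8 and 5.82 CPM in vehicle and 2.85, 4.30 and 5.20 CPM after treatment. Vehicle culture 2 was the highest, the other 5 cultures overlapped between the groups, and the gene was not called (log2 fold change -0.56 ± 0.22 SE, edgeR, BH-adjusted p = 0.111). It was called without the cultures numbered 3 (-0.78, edgeR, BH-adjusted p = 0.0238) and without the low-count filter (-0.58, BH-adjusted p = 0.00267), in a range of 0.00267 to 0.665 over 12 alternatives. The fitted value rests mostly on the second pair, with log2 ratios of -0.092, -1.32 and -0.16, and was -0.13 without it. Mmp8, the collagenase of neutrophils, had the highest fitted value of the family, 0.66, and was not called (edgeR, BH-adjusted p = 0.0768). It was 1.17, 1.42 and 2.02 CPM in vehicle and 1.53, 1.61 and 4.64 CPM after treatment, so that value rests mostly on the third pair, and it was 0.30 without it (edgeR, BH-adjusted p = 0.552). With all cultures and no low-count filter it was called higher (0.64, edgeR, BH-adjusted p = 0.0131, range 0.0131 to 0.62 over 12 alternatives). The 6 other secreted or smaller MMPs, among them Mmp3 (stromelysin), Mmp12 (the elastase of macrophages) and Mmp28, had log2 fold changes from -0.12 (Mmp23) to 0.43 (Mmp3), none called, and without the cultures numbered 3 those 2 were 0.048 and 0.20.

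Promoter stretches were available for 35 of the 56 members in the RefSeq promoter table (GRCm38.p6). They are shown for a pair of secreted MMP genes from the cluster on chromosome 9 that were not called, and for a pair of members called lower. Each line gives the 150 bases before the RefSeq start on the gene's strand, which for Mmp15 lies 28 bases inside the gene as GENCODE M21 places it, with a motif in capitals: an AP-1 motif (TGANTCA) and a TATA motif (TATAAA) in Mmp13, at chr9:7272364-7272513, and in Mmp3, at chr9:7445672-7445821, and a GC box (GGGCGG or its reverse complement) in Mmp15, at chr8:95352146-95352295, and in Timp1, at chrX:20870016-20870165.
Mmp13: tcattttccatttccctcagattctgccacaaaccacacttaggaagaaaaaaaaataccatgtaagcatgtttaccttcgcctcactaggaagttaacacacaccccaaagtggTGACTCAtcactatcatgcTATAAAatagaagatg
Mmp3: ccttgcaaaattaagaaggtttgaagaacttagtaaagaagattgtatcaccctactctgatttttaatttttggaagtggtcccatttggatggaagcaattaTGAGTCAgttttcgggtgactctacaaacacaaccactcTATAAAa
Mmp15: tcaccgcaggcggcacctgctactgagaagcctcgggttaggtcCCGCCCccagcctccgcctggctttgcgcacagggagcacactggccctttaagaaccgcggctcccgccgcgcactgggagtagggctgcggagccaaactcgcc
Timp1: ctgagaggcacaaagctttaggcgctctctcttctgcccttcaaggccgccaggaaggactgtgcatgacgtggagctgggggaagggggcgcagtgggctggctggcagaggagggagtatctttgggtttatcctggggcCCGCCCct

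Searched on both strands of the 250 bases before the start, the GC box was in 23 of 39 member windows (59.0%) and 32.7% of all 32851 windows. Of the 5 called members with a window, 4 held it: Adamts20, Adamtsl3, Mmp15 and Timp1. The called members Mmp2, Mmp9 and Adam12 had no window, so their motifs are not known here. The RefSeq start used for Adamts20 lies 61068 bases inside the GENCODE gene. The AP-1 motif was in 4 of the 39 windows (10.3%, against 6.75% of all windows), in Mmp13, Mmp3, Mmp12 and Adam19, and in 0 of the 5 called members with a window. For Mmp12 the match was only in the window of a second RefSeq start, 2993 bases inside the GENCODE gene. The TATA motif was in 4 member windows (10.3%, against 12.4%). A match is a run of letters in the window, and binding was not measured.

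Among genes over the count minimum, ADAM genes had the highest median level of the protease families in vehicle. It was 9.21 CPM per kb, beside 3.42 for MMP and 1.94 for ADAMTS genes. This order depends on the minimum, which kept 16 of 33 ADAM, 16 of 23 MMP and 16 of 19 ADAMTS symbols. The membrane sheddase Adam10, which releases Notch and amyloid precursor protein ectodomains, had 52.4 CPM per kb in vehicle, Adam9 had 47.1 and Adam23, a neuronal receptor without protease activity, 39.4. Of the 16 ADAM genes, all tested, 1 was called lower (6.25%, near the 5.38% of all genes) and 0 higher (against 3.32%). Their median log2 fold change was 0.044. The median ratio was 0.017, -0.053 and 0.13 for numbers 1, 2 and 3.

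Adam12, a protease of muscle and mesenchymal cells that cuts growth factor precursors, lies at chr7:133883199-134232146 and was 38.3, 49.2 and 30.5 CPM in vehicle and 26.5, 32.3 and 13.6 CPM after HC-HA/PTX3. It was lower in every numbered comparison, most in the cultures numbered 3, and the groups overlapped. The decrease passed both thresholds (log2 fold change -0.76 ± 0.12 SE, edgeR, BH-adjusted p = 0.00221). The log2 ratios within numbers were -0.53, -0.61 and -1.16, and the call held in 11 of 12 alternatives (adjusted p 1.28e-12 to 0.469), being lost without the block.

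Adam10 was 297, 263 and 162 CPM in vehicle and 264, 246 and 143 CPM after treatment, and was lower in both cultures numbered 3. The treatment difference was not called (log2 fold change -0.15 ± 0.060 SE, edgeR, BH-adjusted p = 0.114). Adam9 was 198, 199.8 and 173 CPM in vehicle and 209, 198 and 166 CPM after treatment, with a fold change near 0 (log2 fold change -0.00064 ± 0.061 SE, edgeR, BH-adjusted p = 0.996). Adam23 was 309.9, 189 and 272 CPM and 323, 176 and 287 CPM, with the numbers in the same order in both groups (log2 fold change 0.014 ± 0.064 SE, edgeR, BH-adjusted p = 0.905). The other receptors without protease activity, Adam22 and Adam11, were not called, at 0.032 and 0.22 (0.086 for Adam11 without the cultures numbered 1). Adam8, a protease of leukocytes, was 40.0, 50.4 and 31.5 CPM in vehicle and 57.5, 57.5 and 41.0 CPM after treatment, higher in every numbered comparison without reaching the fold threshold (log2 fold change 0.37 ± 0.081 SE, edgeR, BH-adjusted p = 0.0122). Adam8 no longer passed the adjusted p without the cultures numbered 1 (edgeR, BH-adjusted p = 0.0819) or with no block (0.578). Adam17, which releases tumour necrosis factor, was not called (0.050), nor were Adam15, Adam19 and Adam33. The 5 genes known mainly from testis (Adam1a, Adam4, Adam5, Adam21 and Adam32) were at 0.145 to 1.19 CPM per kb, none called. Adam4 lies inside Cox16 on the same strand, so its counts may include reads of that gene. Adam1a shares 4783 of its 7508 annotated exon bases with Tmem116, Mapkapk5 and a further gene model. Its counts may be too high or too low, depending on how reads in shared exons were assigned.

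Genes that work with ADAMs were described by lists, to be read against the 8.70% of all genes that were called. Of 9 genes that help bring ADAM17 and ADAM10 to the cell surface (iRhoms, the iRhom-binding Frmd8 and TspanC8 tetraspanins), 8 were tested and 0 called, Tspan17 being the most abundant (log2 fold change 0.18, edgeR, BH-adjusted p = 0.106). Of the 4 LGI ligands of ADAM11, ADAM22 and ADAM23, 0 were called. Lgi4, a glial ligand and the most abundant by mean level, was 216, 135 and 11.5 CPM in vehicle and 234, 134 and 12.8 CPM after treatment. It was low in both cultures numbered 3, where the 4 genes summed to 109 and 117 CPM, so it did not lead there. Lgi4 shares 1882 of its 4037 annotated exon bases with Fxyd3, so its counts may be too high or too low, depending on how shared reads were assigned. Of 19 ligands, receptors and adhesion proteins shed by ADAM10 or ADAM17, 18 were tested, with the growth factor gene Hbegf called lower (-0.50) and the growth factor gene Areg (0.52) and the Notch ligand gene Dll1 (1.09) called higher. The most abundant, the receptor gene Ngfr, was at 0.013.

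ADAMTS genes had the lowest family median of the proteases after HC-HA/PTX3, -0.28, and 10 of 15 tested genes were negative, beside 51.1% of all genes. Of the 15, 2 were called lower (13.3%, against 5.38% of all genes) and 0 higher (against 3.32%). By number the median ratio was -0.017, -0.25 and -0.45, so it was near 0 in number 1, and the fitted median was -0.081 without the cultures numbered 3. Whether the family differs from other genes was not tested. The most abundant per kb in vehicle were Adamts1 (16.8), Adamts5 (15.1) and Adamts9 (5.86 CPM per kb), all proteoglycanases that cut aggrecan or versican.

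Adamts20, a versican-cutting enzyme known for its part in melanoblast survival, lies at chr15:94270163-94465418 and was 68.6, 31.6 and 21.8 CPM in vehicle and 34.5, 18.0 and 10.6 CPM after HC-HA/PTX3. Each treated culture held about the same fraction of its numbered vehicle culture, with log2 ratios of -0.99, -0.81 and -1.03, whereas the level itself differed widely among the numbers and the groups overlapped. The decrease passed both thresholds (log2 fold change -0.95 ± 0.083 SE, edgeR, BH-adjusted p = 0.0003). It was lost only without the block, among 12 alternatives with adjusted p of 9.91e-19 to 0.561. Adamts12, which cuts cartilage oligomeric matrix protein, lies at chr15:11064790-11349231 and was 17.0, 20.1 and 8.89 CPM in vehicle and 12.0, 14.0 and 4.26 CPM after treatment. Both cultures numbered 3 were below the other 4, and each treated culture was below its vehicle culture (log2 fold change -0.67 ± 0.13 SE, edgeR, BH-adjusted p = 0.00629). Without the cultures numbered 3 the value was -0.49, under the fold threshold (edgeR, BH-adjusted p = 0.014, range 1.99e-06 to 0.695 over 12 alternatives).

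Adamts5, the aggrecanase, was 221, 189 and 78.7 CPM in vehicle and 188, 157 and 55.5 CPM after treatment, low in both cultures numbered 3. It passed the adjusted p but not the fold threshold (log2 fold change -0.33 ± 0.070 SE, edgeR, BH-adjusted p = 0.0092), and without the cultures numbered 3 it passed neither (-0.24, edgeR, BH-adjusted p = 0.0784). Adamts4, a related aggrecanase, was 21.1, 33.2 and 11.1 CPM and 31.3, 40.1 and 14.5 CPM, in the other direction in every numbered comparison and also under the fold threshold (log2 fold change 0.41 ± 0.090 SE, edgeR, BH-adjusted p = 0.012). It no longer passed the adjusted p without the cultures numbered 1 (edgeR, BH-adjusted p = 0.0953) or with no block (0.82). Adamts1 was 66.2, 99.5 and 80.4 CPM and 65.5, 88.2 and 58.8 CPM (log2 fold change -0.21 ± 0.083 SE, edgeR, BH-adjusted p = 0.0998) and Adamts9 45.5, 58.2 and 37.0 CPM and 47.6, 64.5 and 43.9 CPM (log2 fold change 0.15 ± 0.072 SE, edgeR, BH-adjusted p = 0.166), neither called. The third pair carried most of the value for Adamts1, which was -0.081 without it. The 3 procollagen N-proteinases, Adamts2, Adamts3 and Adamts14, which trim fibrillar procollagens, had log2 fold changes of -0.28, -0.076 and 0.27, none called. Without the cultures numbered 1 Adamts2 was -0.53 and called (edgeR, BH-adjusted p = 0.0453) and Adamts3 was 0.039, and without those numbered 3 Adamts2 was -0.032. The other ADAMTS genes tested, Adamts6, Adamts7, Adamts8, Adamts10, Adamts15 and Adamts17, lay between -0.41 and 0.29, none called. The lowest, Adamts6, had log2 ratios of 0.35, -0.48 and -1.10, and was -0.77 and called without the cultures numbered 1 (edgeR, BH-adjusted p = 0.0498) but -0.073 without those numbered 3.

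Of the proteoglycans and other substrates listed for ADAMTS, 10 of 10 were tested, with 2 called lower and 0 higher, beside 5.38% and 3.32% of all genes. Fn1, which encodes fibronectin and was the most abundant, was 1025, 1404 and 1234 CPM in vehicle and 845, 995 and 735 CPM after treatment (log2 fold change -0.51 ± 0.087 SE, edgeR, BH-adjusted p = 0.0037), and all 3 treated cultures lay below the vehicle cultures. Bgn, biglycan, was at -0.71 (edgeR, BH-adjusted p = 0.00855). Vcan, a substrate of ADAMTS20, was not called (-0.46, BH-adjusted p by edgeR 0.0233).

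ADAMTSL proteins resemble ADAMTS enzymes without the protease domain, and several bind microfibrils. The 5 genes were at low levels, led by Adamtsl5 (5.81 CPM per kb), Adamtsl4 (3.28) and Adamtsl3 (1.60). Adamtsl3, at chr7:82335694-82614450, was 9.01, 9.14 and 16.7 CPM in vehicle and 5.95, 6.51 and 9.97 CPM after HC-HA/PTX3. It was higher in both cultures numbered 3 than in the other 4 and lower in each treated culture than in its vehicle culture, and the decrease was called (log2 fold change -0.62 ± 0.11 SE, edgeR, BH-adjusted p = 0.00553). The call was lost only without the block, among 12 alternatives with adjusted p of 4.97e-05 to 0.506. Adamtsl5 was 14.6, 13.7 and 8.76 CPM in vehicle and 19.7, 15.6 and 11.0 CPM after treatment (log2 fold change 0.31 ± 0.10 SE, edgeR, BH-adjusted p = 0.0563), and Adamtsl4 16.3, 14.8 and 8.51 CPM and 22.1, 15.6 and 9.26 CPM (log2 fold change 0.21 ± 0.11 SE, edgeR, BH-adjusted p = 0.202), with 0.10 for Adamtsl4 when the cultures numbered 1 were left out. Neither was called, nor were Adamtsl1 (0.30, and -0.14 without the cultures numbered 1) and Adamtsl2 (0.13), and the family median was 0.21 (0.098 without the cultures numbered 1).

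**Figure D3:**
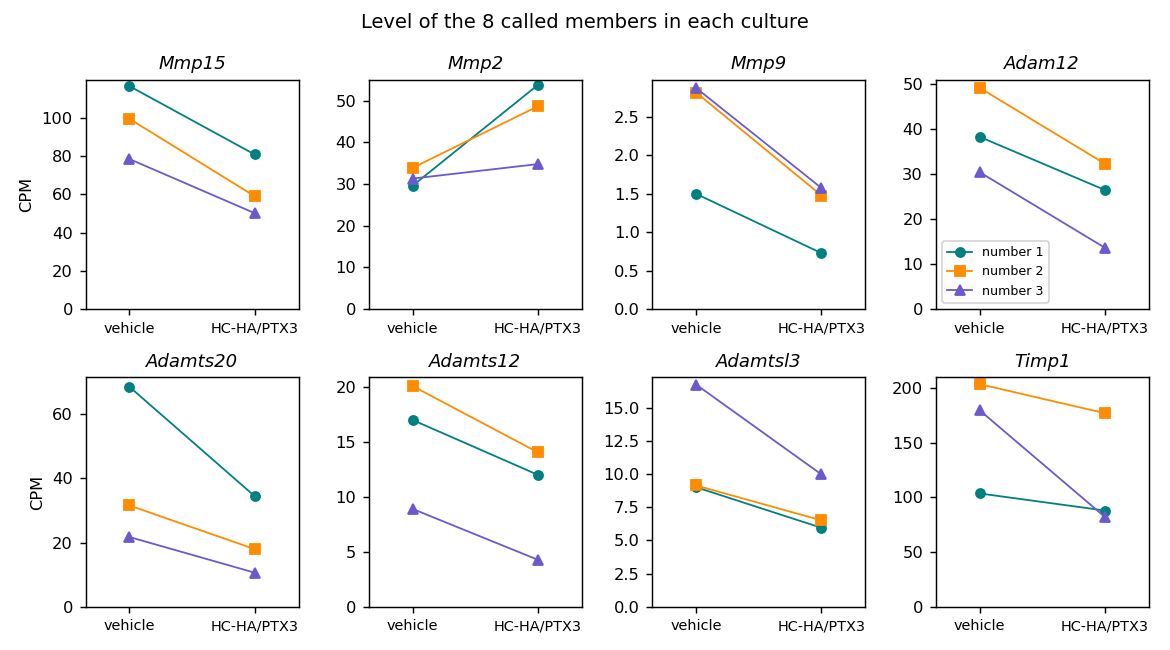
Level of the 8 called members in each culture. Each panel gives CPM (from 0) in vehicle and HC-HA/PTX3 cultures, with a line joining cultures of the same number. Every line falls except those of Mmp2, which rise.

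Per kb, the inhibitors stood above every gene of the other 4 families in vehicle. Timp1 had 183, Timp2 125 and Timp3 110.4 CPM per kb, and Timp4, at 0 to 3 counts a culture, was under the count minimum. Of the 3 TIMP genes, 1 was called lower (33.3%, against 5.38% of all genes). All 3 fold changes were negative, beside 51.1% of all genes. That of Timp2 was near 0 and changed sign in 2 of 12 alternatives.

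Timp1, a secreted inhibitor of most soluble MMPs and a weak one of the membrane-type enzymes, lies at chrX:20870166-20874735 and was 104, 204 and 179.8 CPM in vehicle and 88.1, 177 and 82.2 CPM after HC-HA/PTX3. The groups overlapped, and most of the difference lay in the third pair of cultures, with log2 ratios of -0.24, -0.20 and -1.13. The decrease passed both thresholds narrowly (log2 fold change -0.52 ± 0.15 SE, edgeR, BH-adjusted p = 0.0338). Without the cultures numbered 3 it was -0.20 (edgeR, BH-adjusted p = 0.141). It was called in 6 of 12 alternatives, with adjusted p from 2.41e-11 to 0.669. The lowest came from edgeR with no low-count filter, where the log2 fold change was -0.54, close to the main value. The call was lost with DESeq2 (-0.52, BH-adjusted p = 0.294), ComBat-seq followed by limma-trend (-0.45, 0.063), no block (-0.49, 0.669) and without the cultures numbered 2 (-0.69, 0.0512). With upper-quartile scaling the adjusted p of edgeR with BH passed (0.0453) and the fold change of -0.49 did not. Timp1 lies within Syn1, a neuronal gene, on the other strand, and the strand setting of the counting was not given. Syn1 was 492, 245 and 431 CPM in vehicle and 428, 252 and 488 CPM after treatment, and was not called (log2 fold change 0.0059, edgeR, BH-adjusted p = 0.969).

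Timp3, which binds to the matrix and also inhibits ADAM17 and the aggrecanases, was 644, 523 and 396 CPM in vehicle and 536, 501 and 267 CPM after treatment. It was lower in each treated culture than in its vehicle culture, the third pair differing most, and stayed under the fold threshold (log2 fold change -0.30 ± 0.089 SE, edgeR, BH-adjusted p = 0.0401). Without the cultures numbered 3 it was -0.15 (edgeR, BH-adjusted p = 0.3). The adjusted p was also over 0.05 without number 1 (0.104), with upper-quartile scaling (0.0616), with ComBat-seq followed by limma-trend (0.0601) and with no block. It lies within Syn3 on the other strand, which was at 19.1 ± 1.91 CPM in vehicle (SD, n = 3). Timp2, which binds MMP14 and the MMP2 proenzyme, was 584, 379 and 432 CPM and 578, 364 and 439 CPM. The numbers had the same order in both groups and the fold change was near 0 (log2 fold change -0.015 ± 0.061 SE, edgeR, BH-adjusted p = 0.896).

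**Figure D4:**
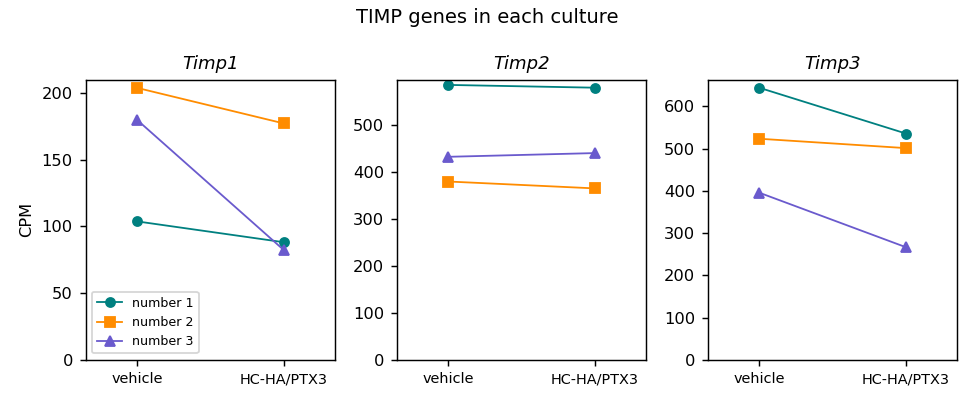
TIMP genes in each culture. Each panel gives CPM (from 0) in vehicle and HC-HA/PTX3 cultures, joined by number. Timp1 falls most in the cultures numbered 3, with a log2 ratio of -1.13, and Timp2 is level in each pair.

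Other regulators of these enzymes were described by lists, with 8.70% of all genes called, as above. Of 9 genes for plasminogen activators, their receptor and inhibitors, 7 were tested, with 2 called lower and 0 higher. Their sums were 547, 667 and 663 CPM in vehicle and 494, 545 and 330 CPM after treatment. Of 12 proteases and procollagen proteinase enhancers that act on these enzymes or their substrates, 10 were tested, and Pcsk5, a proprotein convertase, was called lower (-0.57), while Furin, the most abundant, was at -0.030. Of 10 other inhibitors and inducers, 9 were tested: A2m, a broad protease inhibitor of plasma, was called higher (1.06), Tfpi2, an inhibitor of plasmin, was called lower (-0.71), and Spock2, the most abundant, was at 0.087.

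The cultures are labelled as neurons, and all 8 neuron markers were detected in every culture, beside markers of glia, fibroblasts and other cells. In bulk RNA, fewer cells of a type and less RNA per cell cannot be told apart. The 8 markers of dividing cells were all called lower, beside 5.38% of all genes. Their sums were 819, 622 and 318 CPM in vehicle and 298, 331 and 81.8 CPM after HC-HA/PTX3. Mki67 was the most abundant and 0 of the 8 were at 0 counts in any culture. Of 8 fibroblast markers, 3 (Col1a1, Col1a2 and Col3a1) were called lower, and their sums were 2273, 2340.1 and 1023 CPM and 1293, 1552 and 389 CPM, Col3a1 being the most abundant and the other 5 not called. The sums of both lists were lower after treatment for every number, as were the 7 members called lower. So were those of the mural, macrophage, neutrophil and Schwann cell lists, and the part of these cell types in the members was not tested.

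Other marker lists had 0 to 3 calls, with 8.70% of all genes called. Schwann cell markers had 1 of 8 called lower, at sums of 1400, 1008 and 808 CPM in vehicle and 1280, 912 and 792 CPM after treatment. Of 8 mural cell markers 2 were called lower (Acta2 and Tagln) and 1 higher (Abcc9), with sums of 447, 508 and 418 CPM and 401, 487 and 252 CPM. Neutrophil markers, at sums of 9.51, 16.9 and 11.0 CPM and 5.76, 10.4 and 10.9 CPM, had 3 of 7 tested called lower (Ngp, Mpo and Elane). Macrophage markers, at sums of 45.3, 56.3 and 47.6 CPM and 41.2, 55.2 and 36.9 CPM, had 1 of 8 called lower (C1qa). No neuron, satellite glia or endothelium marker of 8 each was called, and the neuron sums were 7084, 6030.3 and 6641 CPM and 7502, 6599 and 7554 CPM.

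Both cultures numbered 3 were below the other 4 in 21 of 55 members (38.2%, against 18.6% of all genes tested), among them Adamts5, Adamts7, Adamts17, Mmp14 and Mmp28. The summed markers of satellite glia, fibroblasts and Schwann cells were also lowest there. For satellite glia the sums were 1991, 1069 and 407 CPM in vehicle and 1875, 1086 and 430.5 CPM after treatment. Apoe was the most abundant, and 0 of the 8 were at 0 counts. The part of these cell types in the members' levels was not tested.

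**Figure D5:**
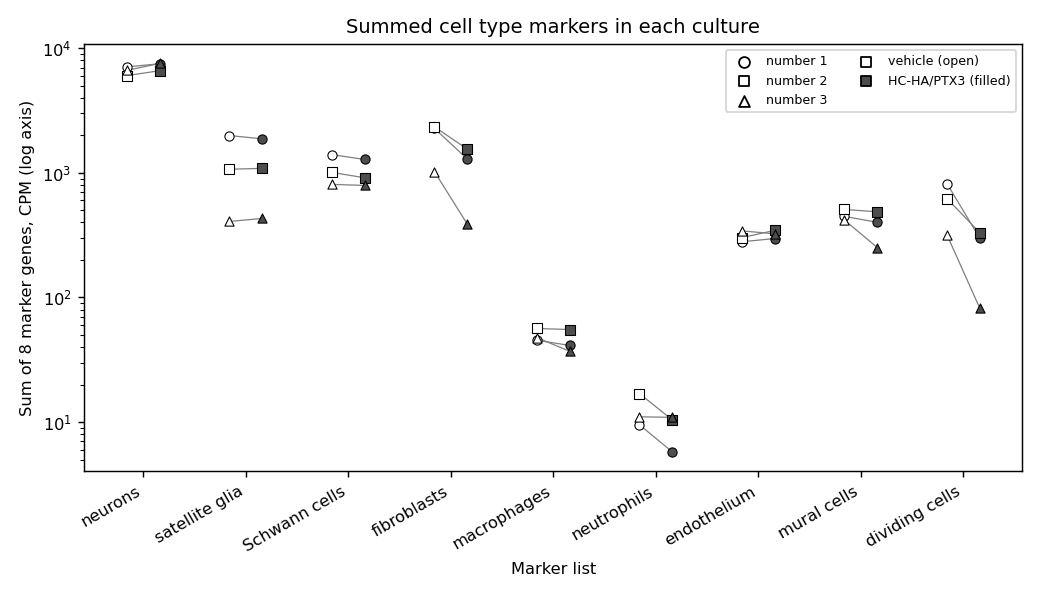
Summed markers in each culture. Each symbol is the sum of 8 marker genes in CPM (log axis) in 1 culture, open for vehicle and filled for HC-HA/PTX3, shaped by number and joined between same-numbered cultures. The dividing-cell and fibroblast sums are lower after treatment for each number, and the satellite glia sums are lowest in number 3.

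The 28 symbols under the count minimum (17 ADAM, 3 ADAMTS, 7 MMP and Timp4) had at most 22 counts in any culture. They include the testis genes Adam2 and Adam3, the collagenase genes Mmp1a and Mmp1b, and Mmp10, a stromelysin with 22 counts in vehicle culture 3. A count of 3 is worth 0.0535 to 0.0808 CPM in these libraries, so levels near that are not distinguished from 0. These limits cover counting error only.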

How the data were processed

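The deposited files hold raw counts per gene, 1 file a culture, not normalized and not pooled. The authors aligned read pairs from ribosome-depleted libraries to mm10 and counted them with featureCounts. Their methods name HISAT2 and the file headers name STAR, and the strand setting was not given in the sources used here. The members and gene lists were chosen with earlier results of these data known. Members named with full values were those called, the TIMP genes, Mmp2, Mmp9 and Mmp13, and the 3 most abundant per kb of each protease family. Mmp16, Adam8 and Adamts4 were added after their values were seen, since they passed the adjusted p alone, and Mmp8 for its high fitted value.

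Counts were analysed in R 4.3.3 with edgeR 4.0.16: filterByExpr by treatment kept 18277 genes, libraries were scaled by TMM, and glmQLFit and glmQLFTest compared treatments with the culture number as a block, as the study's methods use a batch term. The labels give both groups the same numbers and no other batch. The pairing was checked on the data: with each group centred on its mean, cultures sharing a number correlated across genes at 0.631, 0.536 and 0.774, against -0.613 to 0.148 for cultures of different numbers (genes are not independent replicates). Centring makes the 3 values of a group sum to 0 for each gene, so high correlations of some pairs force low ones of others. The size of the contrast is therefore partly built in, but not which pairs correlate positively. The labels do not say what separates the cultures, so p-values measure the spread between these samples. Without the replicate block 0 members were called. A chi-square test between libraries of a group gave 31.4 to 108 per degree of freedom, so none was a copy of another. Exon lengths and positions are from GENCODE M21 (mm10). Alternatives used DESeq2 1.42.0, limma 3.58.1 and sva 3.50.0 (ComBat-seq). The ComBat-seq alternative was tested with limma-trend, so the batch correction and the test changed together. The code was tested on simulated data. Floor values cover counting error only, whereas SDs are over the 3 cultures of a group and SEs come from the edgeR fit. The 10 min arm was not analysed here, and results for some listed genes are not reported here.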

Additional observations from a re-analysis of the deposited data

How the results depend on the processing

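The counts (7 members called lower, 1 higher, 1591 of all genes) were recomputed under 12 alternatives. With no replicate block edgeR called 0 lower, 0 higher and 0 of all genes. With no fold threshold the counts were 10 lower, 3 higher and 3505 genes. Leaving out both cultures of a number gave 6 to 8 lower, 0 to 2 higher and 878 to 1571 genes. The other 7 alternatives gave 6 to 8 lower, 1 higher and 1211 to 2127 genes. Of the 8 called members, 7 were called with DESeq2, 8 with limma-voom, 7 with ComBat-seq followed by limma-trend, 8 with RLE scaling, 7 with upper-quartile scaling, 7 with no low-count filter, 8 with 10 counts in every culture and 6 each without number 1, 2 or 3. All 8 kept their sign in each of the 12 alternatives. With no fold threshold the fit was the same, so the calls and signs of these 8 were fixed there. Members called in addition were Mmp13 and Mmp8 with no low-count filter, Adamts2 and Adamts6 without number 1, Adam4 without number 2, and Mmp13 and Adamtsl1 without number 3. With no low-count filter the smallest edgeR, BH-adjusted p over all genes was 2.81e-130, against 1.34e-06 in the main fit. That setting gave the lowest adjusted p of each of the 8 called members, and the reason was not tested. Of the 55 members tested, 16 changed sign in at least 1 alternative, 0 of them called, with log2 fold changes of -0.12 to 0.30. With a number left out, 34 of the 55 changed sign or fell below 50% of the main fold change, 1 of them called (Timp1), so the sizes given for members not called depend on the cultures used. Among the 21 members followed in each setting, the log2 fold change of Adam9 was 0.0032 with no replicate block, 0.0089 with ComBat-seq followed by limma-trend, 0.031 with upper-quartile scaling, 0.0037 with 10 counts in every culture, and -0.037 to 0.046 when a number was left out (0.0040 without number 2). For Timp2 it was 0.017 with upper-quartile scaling and -0.020 to 0.0025 when a number was left out, and for Adam23 -0.0034 with no low-count filter and -0.0067 to 0.065 when a number was left out (-0.0018 without number 3). The cause of these changes was not tested.

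With 3 cultures a group, an exact permutation test of 3 against 3 that ignores the numbers cannot give a p under 0.1. Exchanges within numbers allow fewer arrangements still, so calls rest on the model across genes. All 8 calls depend on the replicate block, and the labels do not say what the number marks. Timp1 and Mmp2 were the called members most often lost. Mmp9 rests on 27 to 161 counts a culture.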
